A study of Homo sapiens with 18 samples.

Results

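Oxidative phosphorylation is carried out by 5 protein complexes of the inner mitochondrial membrane, and the genes for their subunits lie in 2 genomes. The members described here are the subunit genes of complexes I to V, chosen by symbol: nuclear genes whose names begin with NDUFA, NDUFB, NDUFC, NDUFS or NDUFV and a number, SDHA to SDHD, UQCR, CYC1, COX4 to COX8 or ATP5, and the mitochondrial genes MT-ND, MT-CYB, MT-CO and MT-ATP. Pseudogenes whose symbols end in P and a number, and hyphenated nuclear symbols, were left out. The choice gave 101 of the 58037 genes in the count table, 88 of them nuclear and 13 mitochondrial. A literal reading of the pseudogene exclusion would also have dropped MT-ATP6 and MT-ATP8, which were kept. Of the 101, 94 passed the filter on low counts, 81 nuclear and 13 mitochondrial, among 15185 genes tested.

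Complexes I, III and IV pass electrons from NADH and ubiquinol to oxygen and pump protons, complex II feeds in electrons from succinate, and complex V uses the proton gradient to make ATP. Complex II is built from nuclear subunits alone, whereas each of the other complexes holds a mitochondrially encoded core to which nuclear-encoded core and accessory subunits are added. The mitochondrial genes are copied from both strands of a circular genome as long precursors that are cut into separate RNAs, while each nuclear subunit has its own promoter.

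The cells were LNCaP, an androgen-responsive human prostate cancer line, grown with 9% serum that had been stripped with charcoal and so depleted of androgen. They received a pool of siRNAs against E2F2, a pool against E2F1 or a non-targeting control pool by lipid transfection, and then 0.1 nM of the synthetic androgen R1881 or ethanol vehicle for 48 h, with 3 biological replicates in each of the 6 groups. The time from transfection to treatment is given as 48 h in one label and 42 h in another. All groups share the androgen-depleted medium and the transfection, each silencing rests on 1 siRNA pool, and knockdown left part of the target: E2F2 averaged 0.195 CPM (the count of a gene scaled to the TMM-adjusted library size) with E2F2 siRNA and R1881, against 3.43 CPM with control siRNA and R1881. E2F1 averaged 9.69 CPM with E2F1 siRNA and R1881 and also lay low with E2F2 siRNA and R1881, at 24.1 CPM, against 74.4 CPM with control siRNA and R1881. E2F2 in turn averaged 1.45 CPM with E2F1 siRNA and R1881, below its level with control siRNA and R1881. In vehicle E2F2 averaged 0.121 CPM with E2F2 siRNA. It averaged 1.87 CPM with E2F1 siRNA and 2.29 CPM with control siRNA, and the libraries of these last 2 groups overlapped. E2F1 in vehicle averaged 6.83 CPM with E2F1 siRNA and 12.6 CPM with E2F2 siRNA, against 37.3 CPM with control siRNA.

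The libraries held 10930204 to 14819879 counts. Luminal prostate markers were present in every library (KRT8, a luminal keratin, at 386 to 1221 CPM). Of 13 markers of other cell types, KRT5, TP63, PTPRC, CD3E, COL1A2, DCN, PECAM1 and CHGA had medians of 0 CPM, whereas COL1A1 and VWF had medians of 16.2 and 16.9 CPM. The replicate 3 libraries stood apart in all 6 groups. Among the mitochondrial genes, MT-ND6 was the one farthest below the mean of replicates 1 and 2 in each group, by 0.77 to 2.21 on the log2 scale. NDUFC2 was the nuclear member farthest below it in 5 of the groups, by 0.96 to 1.48. Across the 81 nuclear members, the deviation of replicate 3 correlated with the GC content of the gene in each group (Pearson's r between 0.61 and 0.78 over genes, which are not independent replicates and share 1 library on each side). For some of the values that rested on these libraries, that from replicates 1 and 2 alone is given beside it.

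Every complex was expressed from its nuclear genes, and the median nuclear member stood at 30.3 CPM per kilobase of exon, against 4193 for the median mitochondrial member, with the 2 ranges meeting at ATP5B and MT-ND6. By complex, the median level per kilobase of the tested nuclear subunits was 20.2 CPM for complex I, 14.7 CPM for complex II, 43.2 CPM for complex III, 53.8 CPM for complex IV and 34.3 CPM for complex V. ATP5B, the catalytic beta subunit of ATP synthase, stood at the top of the nuclear members with 436 CPM per kilobase. The 13 mitochondrial genes ranged from 436 CPM per kilobase for MT-ND6, the subunit gene on the opposite strand, to 9553 CPM per kilobase for MT-CO3. The most abundant nuclear member by CPM was NDUFB4 in complex I (mean over all libraries 269.7 CPM), SDHC in complex II (161 CPM), UQCRC2 in complex III (196 CPM), COX4I1 in complex IV (292 CPM) and ATP5B in complex V (1013 CPM).

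Several paralogous isoforms known from restricted tissues had no counts, and others were read at a low level. COX4I2, COX6A2, COX7A1 and COX8C, and the ATP5J2LP copy, had 0 counts in all 18 libraries, where 3 counts would correspond to 0.0132 CPM. COX6B2 had 4 counts and ATP5L2 had 62 counts over the 18 libraries. These 7 genes were not tested. COX7B2 passed the filter with a mean of 0.907 CPM, and NDUFA4L2, a paralog of the complex IV subunit NDUFA4 known as a hypoxia-induced gene, had a mean of 16.9 CPM. The 3 genes for the membrane ring subunit c of ATP synthase, which encode the same mature protein, were all read.

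The summed nuclear level was alike in the 6 groups, and the summed mitochondrial level was highest with E2F2 siRNA. The nuclear members summed to means between 8678 and 8969 CPM. The mitochondrial members of the 3 libraries with E2F2 siRNA and R1881 summed to 55047, 53707 and 60484 CPM, those with E2F1 siRNA and R1881 to 51929, 54180 and 55502 CPM, and those with control siRNA and R1881 to 42496, 49389 and 56386 CPM. In vehicle the sums were 57175, 60773 and 66405 CPM with E2F2 siRNA, 51116, 53299 and 62276 CPM with E2F1 siRNA, and 48998, 51220 and 58179 CPM with control siRNA. The ranges overlapped between every E2F pool and control, and replicate 3 was the highest library of each group. Taken within a replicate number, the E2F2 to control ratio was 1.17, 1.19 and 1.14 in vehicle and 1.30, 1.09 and 1.07 under R1881. The E2F1 to control ratio was 1.04, 1.04 and 1.07 in vehicle and 1.22, 1.10 and 0.98 under R1881. The labels do not say that a number pairs libraries, so these are not ratios of known pairs. For E2F2 and control siRNA under R1881, the deviations of same-numbered libraries correlated as low as r = 0.0819, and pairing was not taken there. The sums hold between 4.29% and 6.55% of a library's counts.

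**Figure D1:**
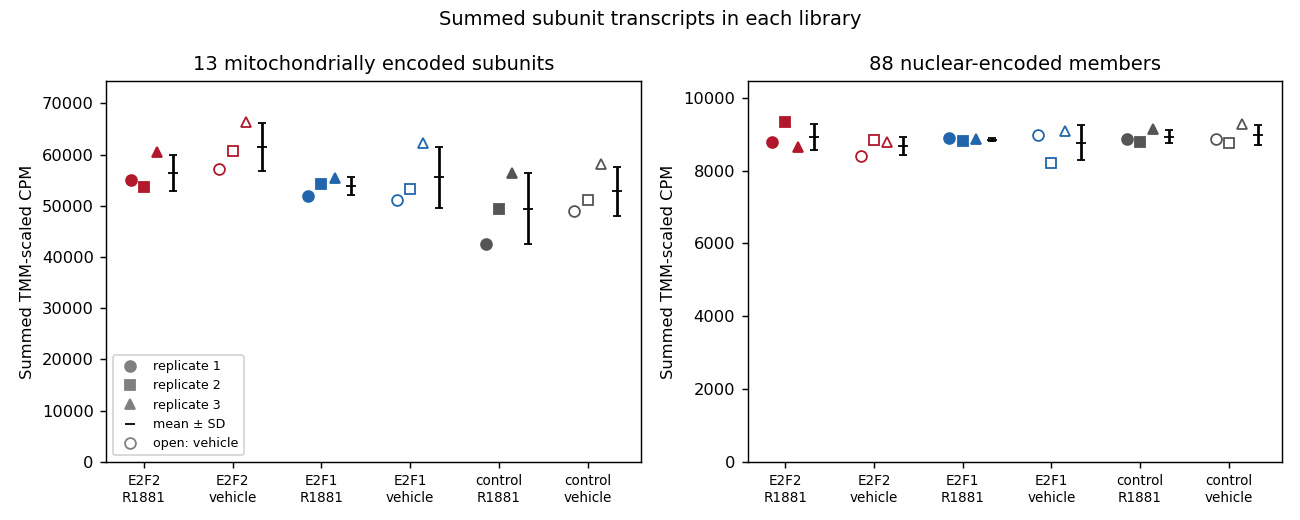
Summed TMM-scaled CPM of the 13 mitochondrially encoded subunits (left) and the 88 nuclear-encoded members (right) in each of the 18 libraries, with the group mean ± SD beside the points. The nuclear sums average 8678 to 8969 CPM by group, while the mitochondrial sums spread from 42496 to 66405 CPM with replicate 3 at the top of each group.

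Over the 9 comparisons of 2 groups, 24 of the 81 nuclear members (29.6%) and 2 of the 13 mitochondrial members (15.4%) were called in at least 1, where 57.9% of all tested genes were. A gene was called at an adjusted p under 0.05 in edgeR's quasi-likelihood test, adjusted over all 15185 genes. None of the 4 subunits of complex II was among them. The 6 group means of a nuclear member spanned a median of 0.33 on the log2 scale, those of a mitochondrial member 0.33, and those of all tested genes 0.69 (0.61 for genes with a mean of at least 10 CPM). The widest spans belonged to NDUFA4L2 (1.76), NDUFB7 (1.08), COX7B2 (1.06), NDUFB4 (0.91), ATP5I (0.87) and ATP5G1 (0.85), and the widest mitochondrial span to MT-ATP8 (0.65, but 0.39 with replicates 1 and 2 alone).

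**Figure D2:**
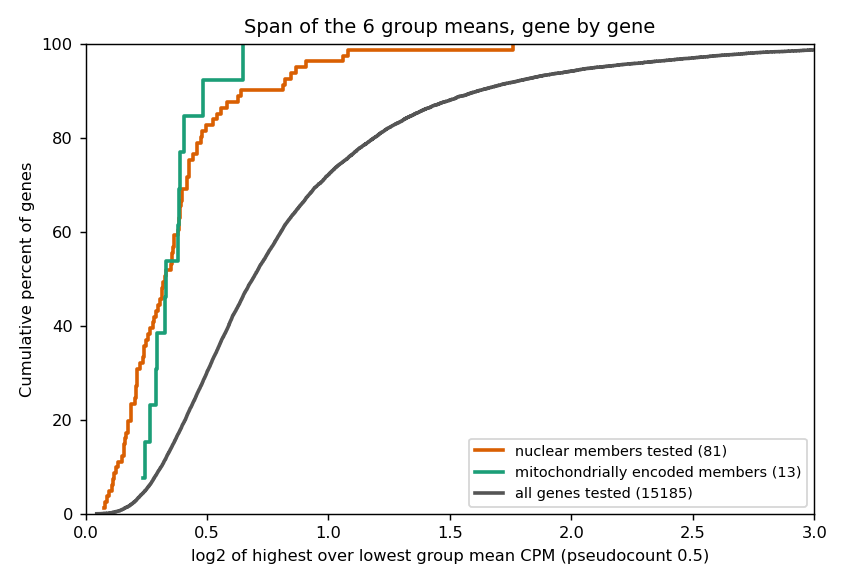
Cumulative percent of genes (y axis) against the log2 ratio of the highest to the lowest of the 6 group means, computed with a pseudocount of 0.5 CPM (x axis), for tested nuclear members, mitochondrially encoded members and all tested genes. The median is 0.33 for both member classes and 0.69 for all genes tested; the x axis ends at 3.

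The members named most often below include 3 whose stretches upstream of a RefSeq start (build GRCh38.p14) hold a motif of factors that textbooks connect with respiratory genes. The motifs searched on both strands were NRF1 (a palindrome in either of 2 overlapping frames, in capitals in the NDUFB4 and NDUFA8 lines), GABPA/ETS (CCGGAAGTG), YY1 (AAGATGGCG) and E2F (TTTCCCGC or TTTGGCGC), in windows of 300 bases from 250 before to 50 after the start. Of the 81 tested nuclear members, 64 matched the table, with 77 windows. NRF1 letters were in 7.79% of those windows and 1.54% of all 35116, GABPA/ETS letters in 3.90% and 2.36%, YY1 letters in 13.0% and 1.75%, and E2F letters in 7.79% and 2.27%. The NDUFB4 stretch lies at chr3:120596136-120596235 on the plus strand, with NRF1 letters beginning 159 bases upstream of the start. The NDUFA8 stretch lies at chr9:122159774-122159873 on the minus strand and has NRF1 letters across the start itself. The NDUFS1 stretch lies at chr2:206159545-206159644 on the minus strand and has GABPA/ETS letters 159 bases upstream of 1 of its starts. These 3 were picked because their RNAs were called lower with E2F2 siRNA against control siRNA. NDUFS1 and NDUFA8 were called under both treatments, and NDUFB4 in vehicle alone. Capitals mark the motif. Other members hold the same letters and were called in none of the 9 comparisons of 2 groups: ATP5C1, NDUFS6 and SDHD with NRF1 letters, and UQCRH and NDUFA13 with GABPA/ETS letters. None of the 5 members with E2F letters (COX7B, COX8A, NDUFA13, NDUFC1 and NDUFS6) was called with either E2F siRNA against control siRNA.
NDUFB4: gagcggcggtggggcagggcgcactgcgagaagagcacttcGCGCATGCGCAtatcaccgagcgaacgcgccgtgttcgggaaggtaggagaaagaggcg
NDUFA8: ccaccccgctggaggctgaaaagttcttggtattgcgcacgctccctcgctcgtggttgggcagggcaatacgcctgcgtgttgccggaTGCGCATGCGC
NDUFS1: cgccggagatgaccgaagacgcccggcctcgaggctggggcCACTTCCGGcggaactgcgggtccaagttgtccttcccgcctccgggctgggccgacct

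With E2F2 siRNA against control siRNA under R1881, the nuclear subunits moved in both directions and by modest amounts. Of 81 nuclear members, 4 were higher and 6 lower, or 12.3%, where 30.3% of all tested genes were called (15.9% higher, 14.4% lower). In bulk RNA, a lower level in each cell and fewer cells holding an RNA cannot be told apart. Complex I held 5 of the 10, and 36 of the 81 tested. NDUFV2, a small iron-sulfur subunit of the NADH-oxidising module, had 82.2, 94.1 and 83.1 CPM with E2F2 siRNA, against 60.0, 66.1 and 62.5 CPM with control siRNA. Each E2F2 library was above each control library, and NDUFV2 rose by 0.46 ± 0.08 on the log2 scale (SE, adjusted p = 0.00032). NDUFS1, the large iron-sulfur subunit of the same module, went the other way. It had 109.8, 109.6 and 104 CPM with E2F2 siRNA, against 133, 140 and 143 CPM with control siRNA, a difference of -0.36 ± 0.08 (adjusted p = 0.0032) with no overlap.

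The remaining complex I calls under R1881 were NDUFA1, an accessory subunit, at 0.39 ± 0.08 (adjusted p = 0.0014), NDUFV3, an accessory subunit of the NADH module, at -0.36 ± 0.12 (0.031), and NDUFA8, an accessory subunit on the intermembrane side, at -0.31 ± 0.09 (0.017). In complex III, UQCRQ rose by 0.26 ± 0.08 (0.020). In complex IV, COX7A2 rose by 0.26 ± 0.10 (0.048) and COX5A, a subunit that binds thyroid hormone metabolites, fell by 0.26 ± 0.07 (0.012). In complex V, the subunit c genes ATP5G1 and ATP5G2 fell by 0.49 ± 0.14 (0.016) and 0.32 ± 0.11 (0.039), while ATP5G3, their paralog, was at -0.08 ± 0.07 (0.42). NDUFV2, NDUFS1 and NDUFA1 kept their calls when any 1 of the 6 libraries was left out. COX5A kept it in 5 of the 6 fits, ATP5G1 in 4, NDUFA8 and UQCRQ in 3, NDUFV3 in 2, ATP5G2 in 1 and COX7A2 in 0, and without the filter on low counts NDUFA1, UQCRQ and COX7A2 were not called. The median over the 81 nuclear members was 0.01, beside 0.03 over all tested genes.

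In vehicle, E2F2 siRNA against control siRNA called 4 nuclear members higher and 8 lower of 81, or 14.8%, beside 27.3% of all tested genes (14.2% higher, 13.1% lower). NDUFV2 had 80.2, 85.4 and 82.9 CPM with E2F2 siRNA, against 55.9, 56.8 and 54.6 CPM with control siRNA. NDUFS1 had 105, 105 and 103 CPM with E2F2 siRNA, against 142, 145 and 114 CPM with control siRNA. NDUFV2 rose by 0.57 ± 0.08 (adjusted p = 5.3e-05) and NDUFS1 fell by 0.35 ± 0.08 (0.0044), so the opposite course of these 2 neighbouring iron-sulfur subunits was seen with and without androgen. NDUFB4 had 233, 245 and 249 CPM with E2F2 siRNA, against 323, 323 and 400.3 CPM with control siRNA, and fell by 0.53 ± 0.09 (0.00028). All 3 E2F2 libraries lay below all 3 control libraries for NDUFB4.

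The largest called difference, that of the accessory subunit NDUFB7 at -1.04 ± 0.33 (adjusted p = 0.030), rested on the replicate 3 libraries in part. It had 16.0, 13.8 and 21.4 CPM with E2F2 siRNA, against 24.3, 25.9 and 55.4 CPM with control siRNA, and its call was lost without control replicate 3 (-0.56, adjusted p = 0.19) and without E2F2 replicate 1 or 2. With replicates 1 and 2 alone it was -0.75. The other falls were those of NDUFB11 (-0.56 ± 0.13), COX6A1 (-0.50 ± 0.13), NDUFA8 (-0.41 ± 0.09), ATP5G1 (-0.41 ± 0.14) and ATP5G2 (-0.36 ± 0.11), and the other rises those of NDUFB3 (0.45 ± 0.12), NDUFB8 (0.36 ± 0.11) and UQCRQ (0.27 ± 0.08), with adjusted p-values between 0.0032 and 0.046. Of these, NDUFB11, COX6A1 and NDUFA8 kept their calls without any 1 library, NDUFB3 in 5 of the 6 fits, NDUFB8, UQCRQ and ATP5G2 in 3 and ATP5G1 in 2. NDUFA4L2 had 21.2, 9.72 and 46.5 CPM with E2F2 siRNA, against 8.29, 5.88 and 13.5 CPM with control siRNA. These groups overlapped, and the difference of 1.49 ± 0.64 was not called (adjusted p = 0.097), but was with the replicate block (0.0011). The 2 treatments shared 6 called nuclear members, ATP5G1, ATP5G2, NDUFA8, NDUFS1, NDUFV2 and UQCRQ, all in the same direction: 60.0% of the 10 calls under R1881 and 6 of the 12 in vehicle. Over all tested genes, 61.2% of the calls under R1881 and 67.9% of those in vehicle were shared in the same direction. In vehicle, where the replicate numbers were taken as pairing the libraries, 25 nuclear members were called with the number as a block (10 higher, 15 lower). With replicates 1 and 2 alone 34 were called, but only 2 (NDUFB4 and NDUFV2) when the fit held the 2 compared groups alone. The share of all tested genes called in these 3 fits is not given here, so their counts are not a result about the members.

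**Figure D3:**
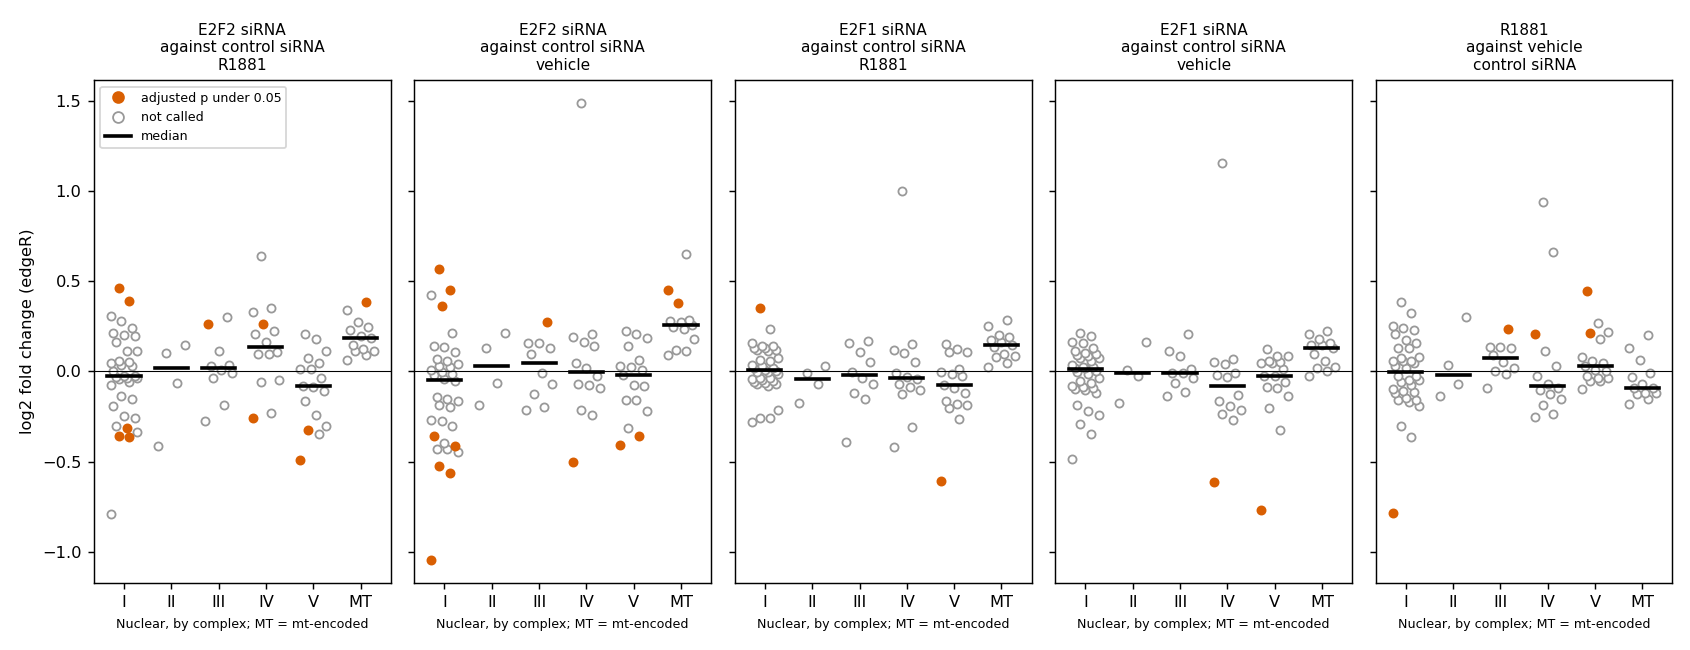
Fitted log2 fold change (y axis) of each tested member in 5 comparisons, with the nuclear members split by complex I to V and the 13 mitochondrially encoded members in the last column (x axis); filled points are called, open points are not, and lines are medians. The mitochondrial medians stand at 0.19 and 0.26 for E2F2 against control siRNA, at 0.14 and 0.13 for E2F1 against control siRNA and at -0.09 for R1881 against vehicle, while calls among nuclear members lie on both sides of 0.

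The mitochondrially encoded subunits had positive log2 fold changes with E2F2 siRNA in 13 of 13 genes under either treatment, and few passed the test. The 13 genes are cut from shared precursors and are not independent observations. Under R1881 the median was 0.19, against a nuclear median of 0.01. Of the 13 genes 1 was called, beside 30.3% of all tested genes. MT-ND4L, a small membrane subunit of complex I, had 658, 625 and 611 CPM with E2F2 siRNA, against 431, 575 and 448 CPM with control siRNA. The groups did not overlap, and the difference was 0.38 ± 0.13 (adjusted p = 0.035). In vehicle the median was 0.26, against a nuclear median of -0.02. Of the 13 genes 2 were called, beside 27.3% of all tested genes. MT-ND4L had 659, 693 and 681 CPM with E2F2 siRNA, against 497, 551 and 437 CPM with control siRNA, and rose by 0.45 ± 0.13 (0.016). MT-ND4, whose open reading frame overlaps that of MT-ND4L by 7 bases on the same RNA, averaged 10889 ± 897 CPM with E2F2 siRNA and 8389 ± 549 CPM with control siRNA (SD, n = 3 each) and rose by 0.38 ± 0.12 (0.025). MALAT1, an abundant nuclear non-coding RNA, moved in the same comparisons. It had 50389, 49940 and 41460 CPM with E2F2 siRNA and R1881, against 17255, 18257 and 12619 CPM with control siRNA and R1881 (1.56 ± 0.32, adjusted p = 0.0017), and 68379, 74210 and 52864 CPM with E2F2 siRNA and vehicle, against 30280, 32760 and 12162 CPM with control siRNA and vehicle (1.38 ± 0.32, 0.0046). Its part in the mitochondrial values was not tested.

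By complex, in vehicle the mitochondrial medians with E2F2 siRNA against control siRNA were 0.24 in complex I (7 genes), 0.28 for MT-CYB of complex III, 0.12 in complex IV (3 genes) and 0.45 in complex V (2 genes), beside nuclear medians of -0.05, 0.04, -0.00 and -0.02. The complex V value is the midpoint of MT-ATP6 and MT-ATP8 and rested on replicate 3, since it was 0.27 with replicates 1 and 2 alone. Under R1881 the mitochondrial medians were 0.11, 0.24, 0.19 and 0.23, beside nuclear medians of -0.02, 0.02, 0.14 and -0.08. With replicates 1 and 2 alone these mitochondrial medians were 0.19, 0.34, 0.25 and 0.18. With the replicate block, 9 mitochondrial genes were called higher in vehicle, and with replicates 1 and 2 alone 11 were called in vehicle and 10 under R1881. These fits also called more nuclear members, and the share of all tested genes that they called is not given here. The counts of 9, 11 and 10 are therefore not a result about the mitochondrial genes. The 2 calls in vehicle were lost when the fit held the 2 compared groups alone. MT-ND4L lost its call under R1881 without control replicate 1 or 3 or any 1 of the E2F2 libraries, and in vehicle without control replicate 3 or E2F2 replicate 2. Its call under R1881 was also lost without the filter on low counts. MT-ND4 in vehicle lost its call without control replicate 1 or 2, or E2F2 replicate 2 or 3.

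MT-ATP8 and MT-ND6 varied most within groups. MT-ATP8 had 686, 721 and 693 CPM with E2F2 siRNA and vehicle, against 568, 602 and 168 CPM with control siRNA and vehicle, a fitted difference of 0.65 that was not called (adjusted p = 0.21). With replicates 1 and 2 alone the difference was 0.26 (0.0035). MT-ND6 had 259.7, 302 and 161 CPM with E2F2 siRNA and vehicle, against 254, 286 and 58.1 CPM with control siRNA and vehicle. In each case replicate 3 of control siRNA in vehicle was the low library. MT-ATP8 and MT-ATP6 lie on 1 RNA and share 46 bases at chrM:8527-8572 (GRCh38, plus strand), the longest overlap among the 13 genes, shown because reads in it belong to both genes.
MT-ATP8/MT-ATP6: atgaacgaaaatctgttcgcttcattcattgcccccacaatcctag
Nuclear copies of mitochondrial genes also took counts: MTATP6P1 held 61327 counts over the 18 libraries, equal to 8.97% of the counts of MT-ATP6, and MTND2P28 held 19697, equal to 3.62% of those of MT-ND2. Levels of these 2 parents are uncertain to that extent, since how reads with several positions were counted is not given in the sources used here.

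**Figure D4:**
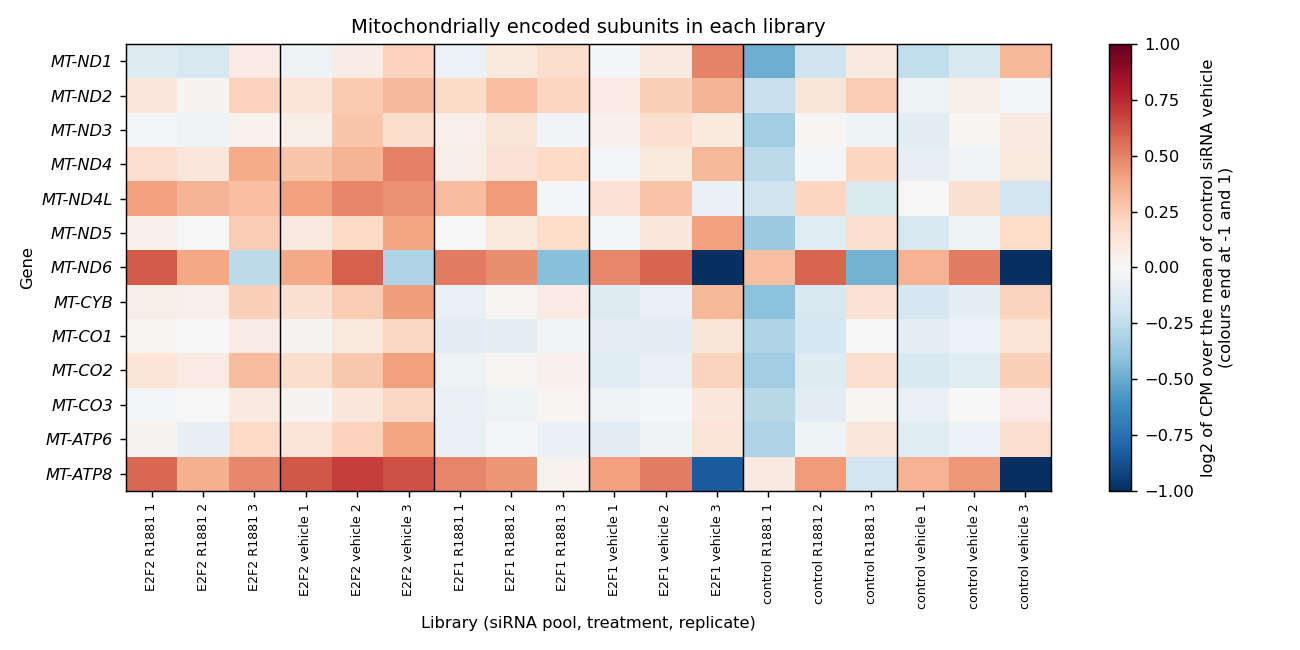
Colour shows the log2 ratio of the CPM of each of the 13 mitochondrially encoded subunits (rows) to its mean in control siRNA with vehicle, in each library (columns, grouped by siRNA pool and treatment). In control siRNA with vehicle, MT-ATP8 and MT-ND6 fall to 168 and 58.1 CPM in replicate 3; MT-ND4L is warm in all 6 E2F2 siRNA libraries.

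E2F1 siRNA against control siRNA moved few subunits, and the calls centred on ATP5I and COX7A2. Under R1881, 1 nuclear member was higher and 1 lower of 81, or 2.47%, beside 9.34% of all tested genes (4.42% higher, 4.92% lower). In vehicle 0 were higher and 2 lower, again 2.47%, beside 5.28% (2.36% higher, 2.92% lower). ATP5I, the gene for subunit e of ATP synthase, which takes part in the dimer interface of the enzyme, had 58.8, 53.0 and 57.0 CPM with E2F1 siRNA and R1881, against 77.9, 86.5 and 92.5 CPM with control siRNA and R1881. In vehicle it had 49.95, 40.8 and 54.5 CPM with E2F1 siRNA, against 74.2, 77.0 and 95.7 CPM with control siRNA. No library of one group overlapped the other. ATP5I fell by 0.61 ± 0.12 under R1881 (adjusted p = 0.0033) and by 0.77 ± 0.12 in vehicle (0.00085), and kept both calls when any 1 library was left out.

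COX7A2, a small subunit of cytochrome c oxidase, fell in vehicle, with 82.8, 73.6 and 68.7 CPM with E2F1 siRNA, against 119, 121 and 104 CPM with control siRNA (-0.61 ± 0.10, adjusted p = 0.0011, no overlap). Under R1881 it had 91.4, 91.3 and 82.1 CPM with E2F1 siRNA, against 115, 112 and 101 CPM with control siRNA, and was at -0.31 ± 0.10, just outside the threshold (0.055), but called with the replicate block (0.0038). NDUFB4 rose under R1881 with E2F1 siRNA by 0.35 ± 0.09 (0.017), with 258, 255 and 259 CPM, against 200.002, 199.943 and 206.682 CPM with control siRNA. The calls of ATP5I and COX7A2 in vehicle were lost when the fit held the 2 compared groups alone, and the NDUFB4 call was lost in 5 of the 6 fits without 1 library (adjusted p between 0.041 and 0.076). The replicate block called 6 nuclear members under R1881 and 5 in vehicle. No mitochondrial gene was called with E2F1 siRNA, beside 9.34% of all tested genes under R1881 and 5.28% in vehicle. Log2 fold changes were positive in 13 of 13 under R1881 (median 0.14) and 12 of 13 in vehicle (median 0.13). With replicates 1 and 2 alone the medians were 0.24 and 0.09. Within a replicate number, the summed level under R1881 had E2F1 to control ratios of 1.22, 1.10 and 0.98, so 1 ratio went the other way. With the replicate block 3 mitochondrial genes were called under R1881, MT-ND1, MT-ND4L and MT-ND5. The share of all tested genes called with the block is not given here, so these block counts are not a result about the members.

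**Figure D5:**
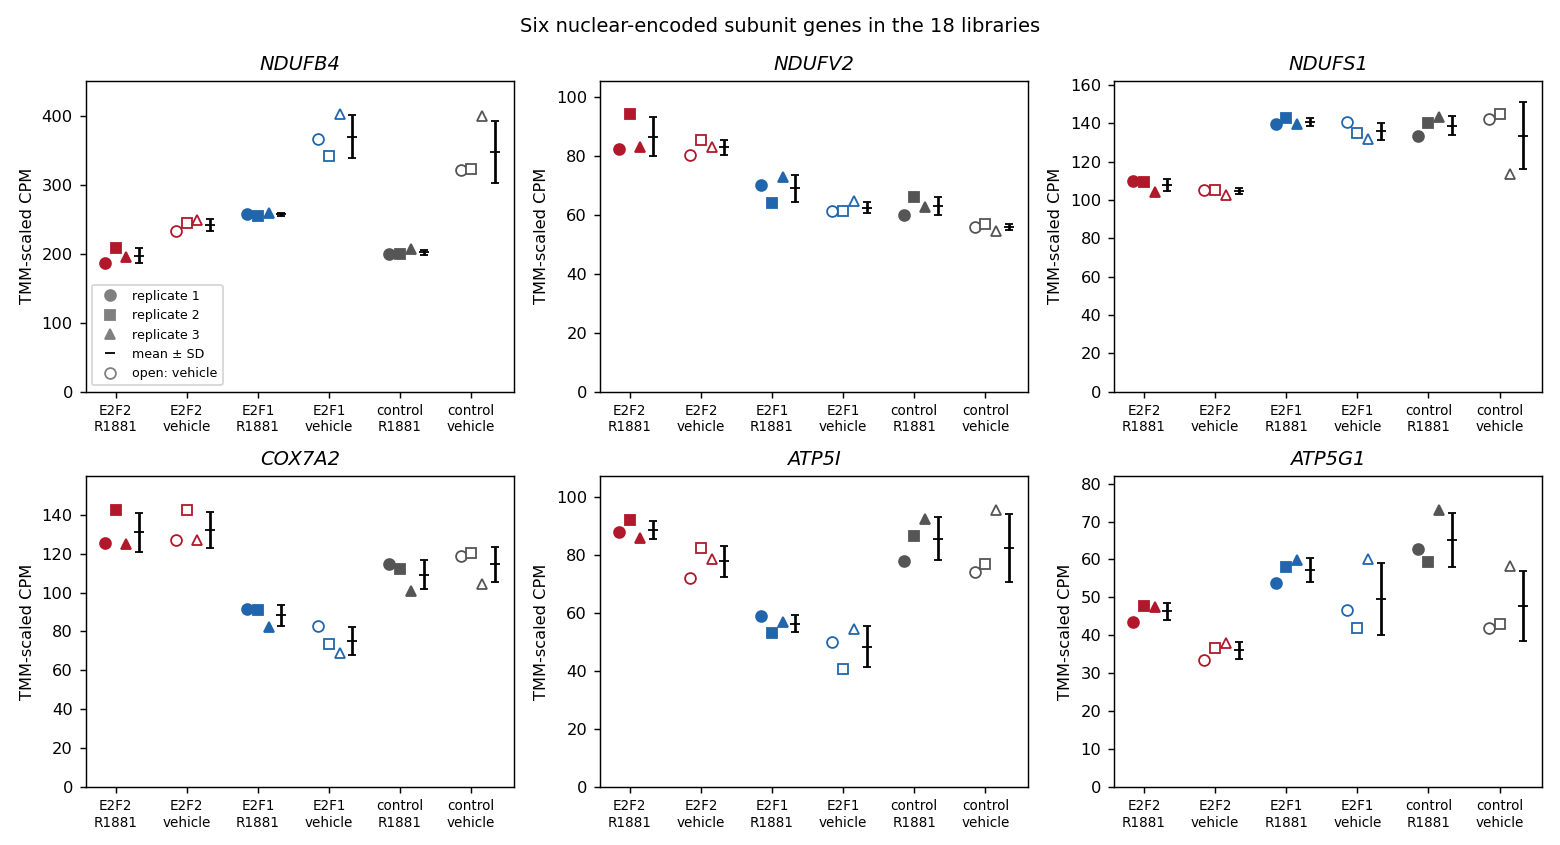
TMM-scaled CPM of 6 nuclear-encoded subunit genes in all 18 libraries, by siRNA pool and treatment, with the group mean ± SD beside the points; filled symbols are R1881 and open symbols vehicle. ATP5I and COX7A2 are lowest with E2F1 siRNA, NDUFV2 is highest and NDUFS1 and ATP5G1 are lowest with E2F2 siRNA, and NDUFB4 is lower with R1881 under each pool.

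The pools were also compared with each other. E2F2 siRNA against E2F1 siRNA called 5 nuclear members higher and 7 lower under R1881 (14.8%, beside 24.0% of all tested genes, 13.1% higher and 11.0% lower) and 6 higher and 11 lower in vehicle (21.0%, beside 30.6%, 16.1% higher and 14.4% lower). Of these, 11 were called under both treatments and in the same direction, or 91.7% of the calls under R1881 and 64.7% of those in vehicle, beside 74.97% and 58.9% over all tested genes. Among the 11, NDUFB9 kept its call in 0 of the 6 left-out fits under R1881 and 3 in vehicle, NDUFV3 in 1 and 3, and NDUFA1 in 3 and 1. COX7A2 was higher with E2F2 siRNA by 0.57 ± 0.10 under R1881 and by 0.82 ± 0.10 in vehicle (adjusted p = 0.00041 and 9.1e-06), and ATP5I by 0.66 ± 0.12 and 0.68 ± 0.12 (0.00070 and 0.00036). NDUFS1 was lower by 0.38 ± 0.08 under each treatment (0.0029 and 0.0024), and ATP5A1, the alpha subunit of ATP synthase, by 0.27 ± 0.08 and 0.35 ± 0.08 (0.028 and 0.0056). The NDUFS1, ATP5I and COX7A2 calls held without any 1 library; ATP5A1 under R1881 lost its call without E2F1 replicate 1 or 2 or E2F2 replicate 3. No mitochondrial gene was called, and in vehicle 6 were with the replicate block, which called 27 nuclear members there. What share of all tested genes the block called is not given here, so these 2 block counts cannot be set against it.

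R1881 against vehicle changed few subunits and lowered NDUFB4 with each pool. With control siRNA, 4 nuclear members were higher and 1 lower of 81, or 6.17%, beside 27.0% of all tested genes (13.8% higher, 13.2% lower). With E2F1 siRNA 0 were higher and 1 lower (1.23%, beside 19.8%, 10.1% higher and 9.75% lower), and with E2F2 siRNA 2 were higher and 1 lower (3.70%, beside 22.8%, 11.8% higher and 11.0% lower). NDUFB4 is an accessory subunit of the membrane arm of complex I. It had 200.002, 199.943 and 206.682 CPM with R1881, against 323, 323 and 400.3 CPM with vehicle under control siRNA, with no overlap, and fell by 0.79 ± 0.09 (adjusted p = 5.0e-06). Under E2F1 siRNA it had 258, 255 and 259 CPM with R1881, against 367, 342 and 403 CPM with vehicle (-0.52 ± 0.09, 0.00029). Under E2F2 siRNA it had 187, 209 and 196 CPM with R1881, against 233, 245 and 249 CPM with vehicle (-0.30 ± 0.09, 0.020). The groups did not overlap with any pool. With E2F2 siRNA the call was lost without R1881 replicate 1 or 3 or vehicle replicate 2 or 3.

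The R1881 response of NDUFB4 was smaller with E2F2 siRNA than with control siRNA by 0.49 ± 0.12, with a 95% interval of 0.25 to 0.73, but the difference did not pass the threshold (adjusted p = 0.081, beside 0.889% of all genes called). With E2F1 siRNA it was smaller by 0.26 ± 0.12 (adjusted p = 0.49, beside 0.685%). No member was called for either difference in response by the unblocked edgeR fit to all libraries. DESeq2 called 1 nuclear member for E2F2 siRNA (NDUFB4), and edgeR with the replicate block also called 1. In edgeR, replicates 1 and 2 alone called 3 for E2F2 siRNA, NDUFB4 among them, and 4 for E2F1 siRNA. For these alternative fits the share of all tested genes called is not given here. At an unadjusted p under 0.05 there were 3 nuclear members for E2F2 siRNA and 2 for E2F1 siRNA, and no mitochondrial member, beside 10.4% and 10.2% of all tested genes.

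The other calls with R1881 under control siRNA were rises of ATP5G1 at 0.45 ± 0.14 (adjusted p = 0.028), UQCRFS1, the Rieske iron-sulfur protein of complex III, at 0.24 ± 0.08 (0.048), ATP5G3 at 0.21 ± 0.07 (0.038) and COX5A at 0.21 ± 0.07 (0.041). ATP5G1 had 62.8, 59.3 and 73.2 CPM with R1881, against 41.8, 43.0 and 58.4 CPM with vehicle. With 1 of the 6 libraries left out, the ATP5G3 and UQCRFS1 calls were kept in 0 fits, that of COX5A in 1 and that of ATP5G1 in 2. When the fit held the 2 compared groups alone, 4 of the 5 calls (all but NDUFB4) were lost. The replicate block called 13 nuclear members. With E2F2 siRNA, COX7A2L, a subunit-like gene that takes part in respiratory supercomplex assembly, rose by 0.39 ± 0.08 (0.0023) with R1881, with 60.8, 63.3 and 62.1 CPM against 48.8, 48.4 and 44.6 CPM in vehicle. NDUFC1 rose by 0.49 ± 0.13 (0.014), and lost its call without E2F2 R1881 replicate 1 or 2 or E2F2 vehicle replicate 3. The replicate block called 8 nuclear members with E2F2 siRNA and 6 with E2F1 siRNA. Its share of calls over all tested genes is not given here, so the counts of 13, 8 and 6 are not a result about the members. Of the 13 mitochondrial genes 0 were called with any pool, beside 27.0% (control), 19.8% (E2F1) and 22.8% (E2F2) of all tested genes. Mitochondrial medians with R1881 against vehicle were -0.09 under control siRNA, -0.05 under E2F1 siRNA and -0.13 under E2F2 siRNA. With replicates 1 and 2 alone these medians were -0.11, 0.004 and -0.13. The fit blocked by replicate number called MT-CO1 and MT-CO3 lower under control siRNA (adjusted p = 0.021 and 0.047) and MT-ATP6 lower under E2F2 siRNA (0.029).

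Succinate dehydrogenase was the only complex with no call in the 9 comparisons by the unblocked fit. It is also the smallest, with 4 tested genes, and 29.6% of all 81 nuclear members were called at least once. With so few genes, the absence of calls does not set this complex apart. With the replicate block, in the comparisons where the numbers were taken as pairing the libraries, SDHD was called for R1881 against vehicle with control siRNA (0.32, adjusted p = 0.0084) and SDHA for E2F2 against control siRNA in vehicle (0.23, 0.020). For E2F2 against E2F1 siRNA in vehicle the block called SDHA (0.24), SDHC (0.31) and SDHD (-0.33). SDHA had 150.4, 159.9 and 167 CPM with E2F2 siRNA and R1881, against 142, 141 and 162 CPM with control siRNA and R1881, a difference of 0.10 with a 95% interval of -0.13 to 0.34. The intervals of SDHB (-0.33 to 0.20) and SDHC (-0.13 to 0.42) were of like width, and that of SDHD (-1.10 to 0.27) was wider. SDHD had 41.3, 41.6 and 22.2 CPM with E2F2 siRNA and R1881, against 53.4, 55.1 and 31.4 CPM with control siRNA and R1881, with the low library in each group being replicate 3. The median 95% interval over nuclear members ran 0.25 to either side of the estimate in each comparison of 2 groups. This interval is not adjusted for the number of genes tested, so its width is not the smallest difference that could be called.

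Genes that make or serve the respiratory chain without being subunits of it were taken from 9 lists. With E2F2 siRNA against control siRNA under R1881, the mitochondrial transcription and replication list had 1 of 16 higher and 7 lower, with a median of -0.34, where 15.9% of all tested genes were higher and 14.4% lower with a median of 0.03. C10orf2, the gene for the mitochondrial DNA helicase Twinkle, averaged 12.8 ± 0.561 CPM with E2F2 siRNA and 28.2 ± 2.38 CPM with control siRNA (SD, n = 3 each) and fell by 1.14 ± 0.15 (adjusted p = 2.6e-05). The exonuclease MGME1 fell by 0.94 ± 0.18 (0.00091), the topoisomerase TOP1MT by 0.90 ± 0.21 (0.0034), and POLG2, the accessory subunit of the mitochondrial DNA polymerase, by 0.59 ± 0.15 (0.0065). TFAM and POLRMT, which package and transcribe the mitochondrial genome, were at -0.62 ± 0.40 and -0.59 ± 0.27 and were not called (0.26 and 0.11). The mitochondrial RNA list (0 of 22 higher, 5 lower) included SLIRP, a partner of LRPPRC in messenger stability, at -0.48 ± 0.12 (0.0057).

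In the carriers and cristae lists more genes were called lower than higher under the same comparison, and 5 of 11 carriers and 8 of 14 cristae genes were not called. SLC25A5, an ADP/ATP carrier, fell by 0.81 ± 0.08 (adjusted p = 2.3e-06), within 1 of 11 carriers higher and 5 lower. Of the cristae and inner membrane genes, 0 of 14 were higher and 6 lower, among them CHCHD3 (-0.62 ± 0.09, 6.0e-05) of the MICOS complex and PHB2 (-0.50 ± 0.13, 0.0073) of the prohibitins. Of the nuclear regulators of biogenesis, 1 of 12 was higher and 4 lower, with falls of the coactivator genes PPRC1 (-0.96 ± 0.16, 0.00035) and PPARGC1B (-0.68 ± 0.11, 0.00026) and of NRF1 (-0.61 ± 0.15, 0.0046), and a rise of ESRRG (1.38 ± 0.49, 0.042). The lists of ubiquinone-linked enzymes (4 of 16 higher, 5 lower), pyruvate entry and the TCA cycle (2 of 20 higher, 3 lower), complex I assembly (2 of 16 higher, 3 lower) and complex II to V assembly (3 of 36 higher, 5 lower) held calls in both directions, to be read against the same 15.9% higher and 14.4% lower of all tested genes. ETFDH and ETFA, which pass electrons from fatty acid oxidation to ubiquinone, rose by 0.83 ± 0.11 and 0.73 ± 0.10, and PDSS1, which makes the ubiquinone side chain, fell by 1.06 ± 0.18.

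In vehicle the E2F2 comparison gave 0 of 16 higher and 3 lower for mitochondrial transcription and replication (C10orf2 at -0.73 ± 0.15), 1 of 14 higher and 5 lower for cristae, 0 of 11 higher and 3 lower for carriers, 0 of 12 higher and 1 lower for biogenesis regulators (median -0.06) and 1 of 22 higher and 2 lower for mitochondrial RNA (median -0.01), where 14.2% of all tested genes were higher and 13.1% lower. R1881 against vehicle with control siRNA gave 2 of 16 higher and 0 lower for transcription and replication (C10orf2 at 0.74 ± 0.14), 5 of 11 and 0 for carriers (SLC25A5 at 0.45 ± 0.08), 4 of 14 and 0 for cristae, 4 of 12 and 0 for biogenesis regulators and 6 of 20 and 1 for the TCA list, where the pyruvate carrier gene MPC2 rose by 1.76 ± 0.17 (adjusted p = 1.2e-06). Of all tested genes, 13.8% were higher and 13.2% lower there. This comparison and that of E2F2 with control siRNA under R1881 share the 3 control libraries with R1881, so their opposite signs are not independent of each other. With E2F1 siRNA against control siRNA under R1881, 0 of 16 transcription and replication genes were called, where 9.34% of all tested genes were. SLC25A5 fell by 0.28 ± 0.08 (0.043) there.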

How the data were processed

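Per the labels, RNA was made into exon capture libraries (TruSeq RNA Exome), so mitochondrial and nuclear RNAs are read as far as the capture passes them. The submitters' processing notes name CASAVA 1.8.2, TopHat2 2.0.13, Picard 1.97, featureCounts of Subread 1.6.4 and GRCh38; settings are not given in the sources used here, including strand and reads with several positions. The deposited values are the authors' raw counts per gene. No reads were processed here.

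Low genes were dropped with filterByExpr given the 6 groups (at least 10 counts, total of 15), and the rest were scaled by TMM and fitted with 1 model of 6 group means to 18 libraries (edgeR 4.0.16, quasi-likelihood F test, R 4.3.3). P-values were adjusted by Benjamini-Hochberg over 15185 genes; SE is the log2 fold change divided by the square root of F. Levels are TMM-scaled CPM computed here; the per-kilobase scale uses GENCODE 29 exons, and promoter sequences are RefSeq's. The scripts were tested on simulated data. Alternatives were other scaling, no filter, DESeq2 1.42.0, the replicate number as a block, replicates 1 and 2 only, scaling without mitochondrial genes, the compared groups only, and each library left out. Counts of members called under an alternative are given without the share of all tested genes called under it. Such counts are not a result about the members. Same-numbered libraries deviated together in 8 of the 11 comparisons (every pair's r over 0.1), so the numbers were taken as pairing there, from the data and not from the labels; in E2F2 against control siRNA and against E2F1 siRNA under R1881 the lowest r was 0.0819 and 0.0911. 11 of 18 libraries correlated best with their own number. Because replicate 3 stood apart in every group, such correlations can arise from it alone. The check therefore does not show that replicates 1 and 2 were paired.

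Named were all 13 mitochondrial genes, the 6 largest called rises and falls per comparison, the most abundant nuclear member per complex, fixed isoform sets and up to 4 called genes of each related list. The members and lists were chosen with earlier results of these data known. TFAM, POLRMT, MALAT1 and ATP5A1, and some smaller calls of members named in another comparison, fall outside this rule and were chosen after their values were seen.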

Additional observations from a re-analysis of the deposited data

How the results depend on the processing

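No called member changed direction under any alternative. The count of nuclear members called moved by over 1.5 times as follows, in the order R1881 against vehicle with control, E2F1 and E2F2 siRNA, E2F1 and E2F2 against control siRNA under R1881, the same in vehicle, and E2F2 against E2F1 siRNA under R1881 and in vehicle, where the main counts were 5, 1, 3, 2, 10, 2, 12, 12 and 17. With the replicate block they were 13, 6, 8, 6, 27, 5, 25, 25 and 27, and with replicates 1 and 2 only 21, 15, 20, 15, 33, 9, 34, 33 and 34. The share of all tested genes called in each of these fits is not given here, so these counts cannot be set against it. With the compared groups only, the counts that moved were 1 for R1881 with control siRNA, 5 for R1881 with E2F2 siRNA, 4 and 16 for E2F1 and E2F2 against control siRNA under R1881, 0 and 2 for the same in vehicle, and 21 for E2F2 against E2F1 siRNA under R1881. Without the filter on low counts, 2 were called for R1881 with control siRNA, 1 for E2F1 against control siRNA under R1881 and 7 for E2F2 against E2F1 siRNA under R1881. For the differences in response, where none was called, replicates 1 and 2 gave 4 (E2F1) and 3 (E2F2), and DESeq2 and the block gave 1 each for E2F2. Leaving out 1 library gave, in the same order, 1 to 5, 1 to 2, 1 to 3, 1 to 2, 5 to 8, 2 to 3, 7 to 14, 7 to 12 and 11 to 17, and 0 throughout for the differences in response.

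Single libraries moved these counts by over 1.5 times. Under control siRNA, R1881 against vehicle gave 1 without R1881 replicate 1, 2 without R1881 replicate 2 or 3 or vehicle replicate 1, and 3 without vehicle replicate 2. R1881 with E2F1 siRNA gave 2 without vehicle replicate 3, and R1881 with E2F2 siRNA gave 1 without R1881 replicate 1. Under R1881, E2F1 against control siRNA gave 1 without control replicate 1 or 2 or any E2F1 replicate, E2F2 against control siRNA gave 5 without control replicate 3 or E2F2 replicate 1 and 6 without replicate 2 of either, and E2F2 against E2F1 siRNA gave 7 without E2F1 replicate 1 or 2. In vehicle, E2F2 siRNA gave 7 against control siRNA without E2F2 replicate 2 and 11 against E2F1 siRNA without E2F2 replicate 1.

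The nuclear minus mitochondrial difference in median log2 change for R1881 with control siRNA was 0.11 and ran from -0.0168 to 0.16 with 1 library left out, the low value being that without control R1881 replicate 1. For E2F2 against E2F1 siRNA under R1881 it was -0.07 and ran from -0.12 to 0.0051 (without E2F2 replicate 3), for E2F1 against control siRNA it was -0.16 under R1881 (-0.20 to -0.0785, without control replicate 1) and -0.14 in vehicle (-0.18 to -0.0433, without E2F1 replicate 2), for E2F2 against control siRNA under R1881 it was -0.18 (-0.23 to -0.11, without E2F2 replicate 3), and for the difference in response with E2F1 siRNA it was -0.04 (-0.08 to 0.06, without control R1881 replicate 1). Scaling without mitochondrial genes left every count of nuclear calls as it was. Depth of 10930204 to 14819879 counts limits the low members COX7B2 and NDUFA4L2, and the cause of the movements was not tested.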
